A study of Mus musculus with 12 samples.

Results

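Solute carrier (SLC) genes encode membrane proteins that move amino acids, sugars, ions, metals, vitamins and metabolites across the plasma membrane and the membranes of organelles. Most members of the Slc25 family sit in the inner mitochondrial membrane (Slc25a46 is found in the outer one), the Slc35 family supplies the Golgi and the endoplasmic reticulum with nucleotide sugars, and the Slc30 and Slc39 families move zinc in opposite directions. Many of these genes use several first exons or several splice sites, so that 1 gene can give rise to several transcripts.

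The splicing of these genes was followed in nascent, metabolically labelled RNA from mouse ES cells after acute loss of METTL3, the catalytic subunit of the complex that writes N6-methyladenosine (m6A) on RNA. The cells were female, of the hybrid background 129S x Cast, carried a doxycycline-inducible Xist gene and had an FKBP12(F36V) degron fused to the C terminus of METTL3, in the Ctrl and in the dTAG group alike. The 12 samples came from 2 clones of this line, C3 and H5, with 3 replicates per clone in each group. The 6 Ctrl samples received no dTAG-13 (0 h), and the 6 dTAG samples received dTAG-13, which sends the degron-tagged protein for degradation, for 3 h. All samples were then labelled with 4-thiouridine (4sU) for 30 min, and the labelled RNA was purified and sequenced (4sU-seq). The cells grew on inactivated fibroblast feeders, and of the marker genes listed for each cell type, 9 of 12 for embryonic stem cells (Nanog, Sall4, Esrrb, Zfp42, Klf4, Tdgf1, Dppa4, Tet1 and Dnmt3b) and 2 of 9 for feeder fibroblasts (Fn1 and Sparc) had a tested splicing cluster. Expression levels and the METTL3 protein level were not analysed here.

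An intron cluster is a set of introns that share splice sites, and PSI (percent spliced in) is the share of a cluster's split reads that span a given intron, so that the PSI values of a cluster sum to 1 in each condition. Members were all tested clusters with a gene symbol that starts with Slc followed by a number or the letter o. The rule found 98 clusters among the 8706 deposited. Of these, 79 were tested, among 7263 tested clusters in all, and they held 230 of 20437 tested introns in 51 of 4273 genes. The other 19 were not tested by the authors, 10 because at most 1 sample had enough coverage and 9 because too few samples were valid, and 16 Slc genes had no tested cluster at all. No Slco gene was among the members. The symbols of 3 member genes name partners or neighbours of carriers and not carriers: Slc7a6os, Slc4a1ap and Slc9a3r1 (the scaffold protein NHERF1). The other 48 genes, with 76 clusters, were placed in 10 substrate classes. Of the 51 genes, 30 had 1 tested cluster, 15 had 2, 5 had 3 and only Slc7a3 had 4, and clusters of the same gene share their transcripts. Each PSI is the authors' fitted value for all samples of a condition, so it has no replicate error here, the depth behind it is unknown, and all p-values come from likelihood-ratio scores fitted across the samples of both clones together and set against the chi-square distribution (χ2 p).

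Few SLC clusters passed the test, at a rate near that of all genes. A p-value of at most 0.05 was reached by 4 of the 79 SLC clusters (5.06%), against 497 of the 7263 tested clusters (6.84%). After Benjamini-Hochberg adjustment over all tested clusters, 1 SLC cluster (1.27%) had an adjusted p under 0.2, against 115 clusters in all (1.58%). No SLC cluster had an adjusted p under 0.05, against 51 in all (0.702%), and 4 had an unadjusted p of at most 0.05. The 4 clusters lay in Slc16a1, Slc39a7, Slc37a1 and Slc25a3, genes of 4 different substrate classes.

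**Figure D1:**
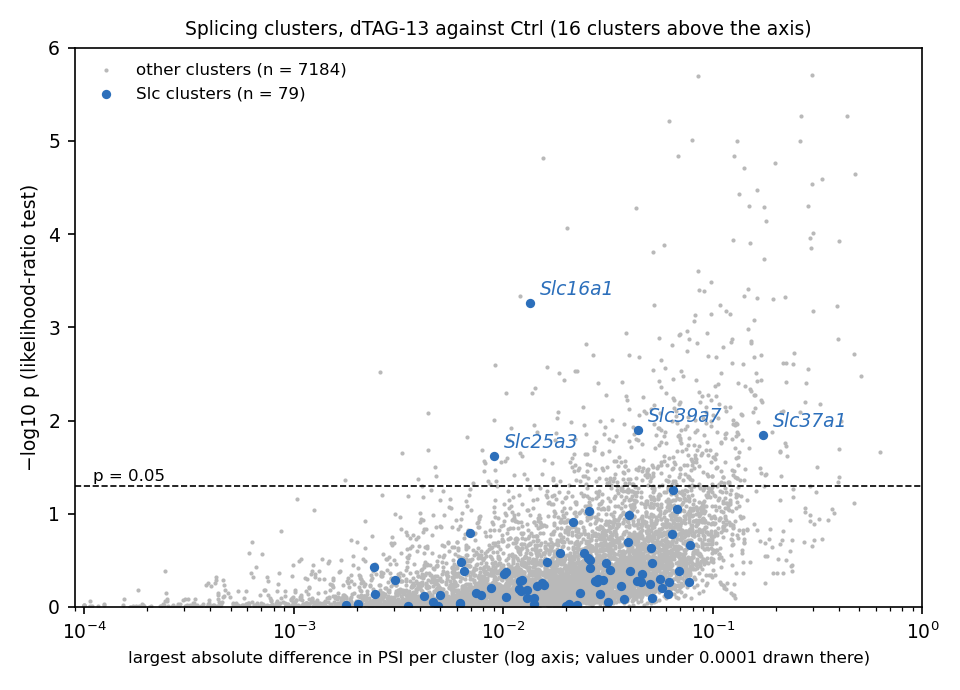
Each point is 1 tested cluster, with its largest absolute difference in PSI between the dTAG and Ctrl groups on a log axis and the −log10 p of the likelihood-ratio test on the y axis. The 79 SLC clusters (blue) lie within the cloud of the 7184 other clusters (grey, 16 of them above the axis), and 4 of them, labelled by gene, lie above the dashed line at p = 0.05 of the χ2 test.

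The median size of the differences was also near that of all genes, whereas differences of at least 10 percentage points were rarer, on a count of 1 SLC cluster. The largest absolute difference in PSI within a cluster had a median of 2.16 percentage points over the SLC clusters (quartiles 1.01 and 4.01), against 2.14 points over all tested clusters (quartiles 0.909 and 4.24). A largest difference of at least 5 percentage points was found in 15 SLC clusters (19%), against 19.8% of all clusters. Counted by intron, 20 of 230 SLC introns (8.7%) differed by at least 5 points, against 12.4% of all tested introns. Only 1 SLC intron (0.435%), in Slc37a1, differed by at least 10 points, against 2.81% of all tested introns, and its cluster was 1 of 79 (1.27%), against 4.63% of all tested clusters.

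All 4 clusters with a p of at most 0.05 were choices between 5′ splice sites joined to 1 shared 3′ splice site, a type that made up 22 of the 79 SLC clusters (27.8%) and 29.8% of the 497 clusters with a p of at most 0.05 in all genes. In each of the 4, the intron with the highest PSI had a lower PSI in dTAG than in Ctrl. That direction held for 53.7% of the 497 clusters. These clusters had the 4 smallest p-values of the SLC clusters, 3 of them with an adjusted p above 0.4, and their 5′ splice sites are printed here so that the competing sites can be compared, from the GRCm38.p6 genome (mm10), 5′ to 3′ on the strand of the gene, as the last 12 exon bases and the first 12 intron bases, with the first 2 intron bases in capitals.

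Slc16a1, not annotated, chr3:104652775-104652798 (+): tgactatgattgGCaagtatttct
Slc16a1, annotated, chr3:104653576-104653599 (+): caccacttttagGTatagtatgtc
Slc39a7, annotated, chr17:34030812-34030835 (-): ctctgggcctacGTgagtcgccag
Slc39a7, not annotated, chr17:34030973-34030996 (-): atggacactcacGTgaggaattac
Slc39a7, annotated first exon, chr17:34031536-34031559 (-): atcccggagccgGTgagaggtccc
Slc37a1, first exon a, chr17:31295743-31295766 (+): acactgacacagGTgcggtaccag
Slc37a1, first exon b, chr17:31296244-31296267 (+): tgcggagcgcagGTaggcgcgggg
Slc37a1, first exon c, chr17:31296904-31296927 (+): ggtggcccgcagGTaaagatttgc
Slc37a1, first exon d, chr17:31297058-31297081 (+): ttgggcgagttgGTaaatatatta
Slc25a3, annotated first exon, chr10:91120613-91120636 (-): tagataccaagtGTaagtcctgaa
Slc25a3, annotated exon of the coding transcript, chr10:91121910-91121933 (-): tgccgcatgcagGTttgtattgtt

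The 5′ sites opened with GT in 10 of these 11 introns, and the unannotated site of Slc16a1 opened with GC, the common alternative to GT. Intron positions below are as deposited: the first number is the last exon base before the intron and the second the first exon base after it, in mm10. Annotated means present in GENCODE vM21.

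Slc16a1 encodes MCT1, a proton-coupled carrier of lactate, pyruvate and other monocarboxylates. Its cluster had the smallest p-value of the SLC clusters (χ2 p = 5.5e-04, adjusted p = 0.066). The unannotated intron chr3:104652786-104655448, which starts at the GC site, had a PSI of 0.258% in Ctrl and 1.59% in dTAG. The annotated intron chr3:104653587-104655448, intron 4 of 4 of Slc16a1-201, went from 99.7% to 98.4%. The difference of 1.33 percentage points had an approximate 95% interval of 0.311 to 4.11 points, worked out from the test score. The GC site lies 45 bases into a coding exon of 846 bases, and its use removes the last 801 bases of that exon, which are coding throughout and equal 267 codons, so that the reading frame is kept. This was thus a rare event in both groups, and the annotated intron held more than 98% of the split reads in each.

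Slc39a7 encodes ZIP7, which releases zinc from the endoplasmic reticulum and the Golgi. Its cluster also carries the name Gm20427 in the file, so the reads cannot be assigned to 1 of the 2 gene models. The unannotated intron chr17:34030734-34030985 had a PSI of 1.61% in Ctrl and 5.97% in dTAG. The annotated first intron of Slc39a7-201, chr17:34030734-34030824, went from 93.9% to 89.7%. The share of the third intron, chr17:34030734-34031548, which starts in a non-coding first exon, was 4.48% in Ctrl and 4.29% in dTAG, so the exchange lay between the first 2 introns. The cluster reached χ2 p = 0.013, with an adjusted p of 0.42. The unannotated site lies 161 coding bases upstream of the annotated one, which is not a multiple of 3, and its use shifts the reading frame relative to Slc39a7-201.

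Slc37a1 encodes a sugar phosphate exchanger related to the glucose 6-phosphate carrier of the endoplasmic reticulum. It had the largest PSI difference of the SLC genes, in a choice between 4 annotated first exons that all join the same second exon at chr17:31300290. The introns are named after the first exons a to d of the sequences above. Exons b and c overlap, as b is annotated at chr17:31296204-31296255 and c at chr17:31296215-31296915. The 5′ site of b thus lies 41 bases into exon c. Exon c, the first exon of Slc37a1-201, held 76.9% of the split reads in Ctrl and 59.6% in dTAG, a difference of -17.3 percentage points. Exon b went from 6.01% to 15.2%, exon a from 7.49% to 13.1% and exon d from 9.58% to 12.1%. All 3 minor first exons thus had larger shares in dTAG, and the main one a smaller share. The cluster reached χ2 p = 0.014, with an adjusted p of 0.44. None of the 4 first exons is coding at its 5′ splice site, and the exchange concerns the untranslated start of the transcript. A choice of first exon also reflects where transcription starts, and the split reads cannot tell a change of promoter from a change of splice site. The second tested Slc37a1 cluster, at intron 9, had χ2 p = 0.53, with an unannotated site at 5.55% in Ctrl and 4.34% in dTAG.

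Slc25a3 encodes the mitochondrial phosphate carrier, which supplies the matrix with phosphate for ATP synthesis. In its first cluster, the intron chr10:91119706-91120625, which starts in a non-coding first exon, had a PSI of 0.604% in Ctrl and 1.501% in dTAG. The alternative, chr10:91119706-91121922, is intron 3 of 7 of the coding transcript Slc25a3-201 and went from 99.4% to 98.5%. As the minor intron starts in a first exon, its share may also reflect where transcription starts, which was not tested. The difference of 0.897 percentage points had an approximate 95% interval of 0.0769 to 2.67 points (χ2 p = 0.024, adjusted p = 0.57). The second Slc25a3 cluster is a pair of 5′ sites 4 bases apart at intron 5, of which the unannotated site had 1.80% in Ctrl and 2.42% in dTAG (χ2 p = 0.33).

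**Figure D2:**
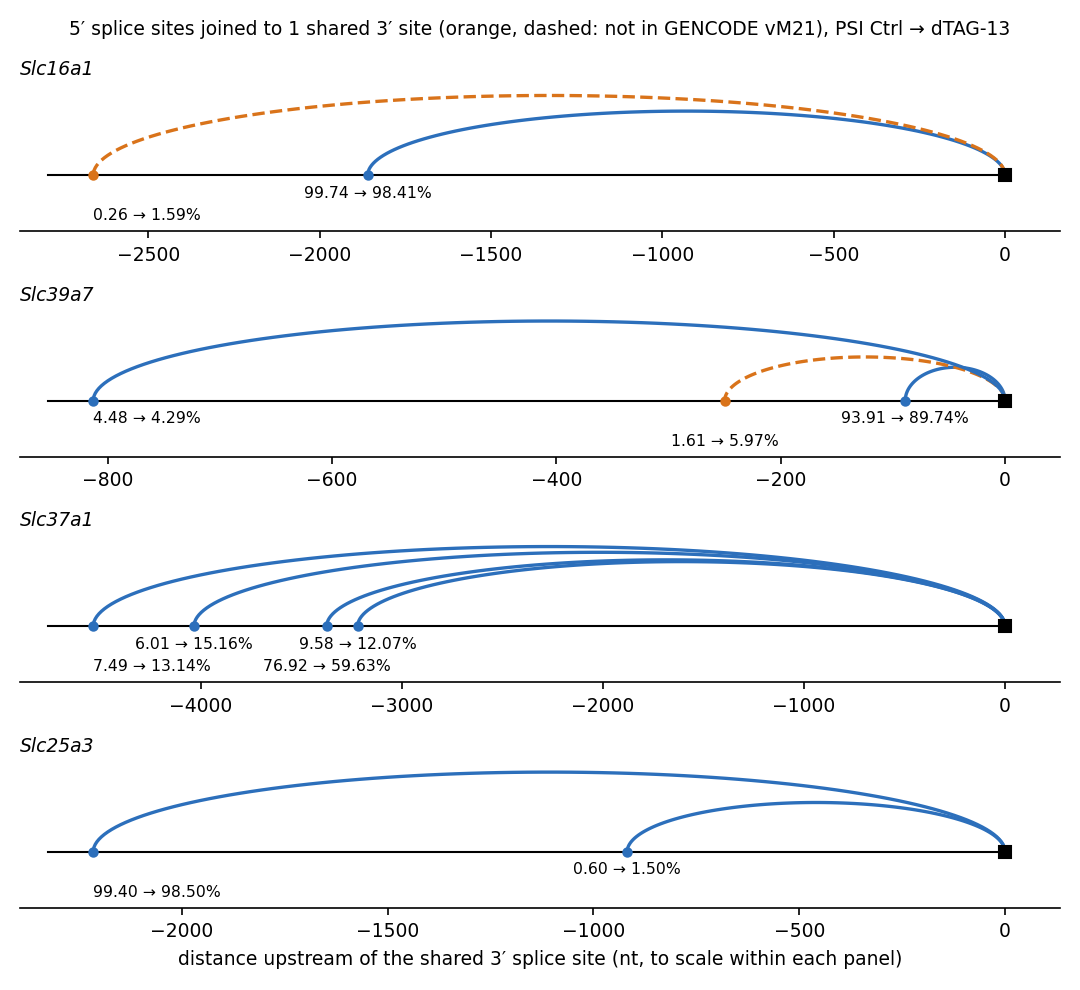
The 5′ splice sites (round points) of the 4 SLC clusters with a p of at most 0.05, drawn by their distance in nt upstream of the shared 3′ splice site (black square), to scale within each panel, with the PSI in Ctrl and in dTAG under each site. In every panel the site with the highest PSI had a smaller share in dTAG, by between 0.897 points in Slc25a3 and 17.3 points in Slc37a1.

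The consensus letters GGACT, the core in which m6A is most often placed, were searched on the sense strand in the 250 bases on each side of every 5′ splice site of the tested clusters. They occurred in 67 of 162 SLC windows (41.4%) and in 37.7% of the 13988 windows of all clusters, and the reverse complement AGTCC, the same search on the other strand, occurred in 43.8% and 34.6%. In the stretch between the outermost 5′ sites the letters occurred 4 times in Slc16a1 (801 bases), 3 times in Slc39a7 (724 bases), 1 time in Slc37a1 (1315 bases) and 0 times in Slc25a3 (1297 bases). The windows of the Slc37a1 first exons b, c and d held none, and that of first exon a held 4. A match is no measurement of m6A.

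By substrate class, the mitochondrial carriers were the largest group, with 21 clusters in 12 genes. Only the first Slc25a3 cluster passed p of at most 0.05, and the median of the largest PSI difference was 2.25 percentage points. Next to the threshold stood the first cluster of Slc25a12, the aspartate/glutamate carrier aralar (χ2 p = 0.056, adjusted p = 0.74). It joins 5 different 5′ sites to the start of exon 4, and the annotated intron 3 held only 15.4% of the split reads in Ctrl and 10.9% in dTAG. The unannotated intron of 320 bases held 50.3% and 48.1%. Another unannotated intron, of 371 bases, held 3.94% and 10.4%, the largest difference in the cluster. The second Slc25a12 cluster, with 6 introns, had χ2 p = 0.89 and a largest difference of 3.15 points. Slc25a36, a carrier of pyrimidine nucleotides, had a cluster with an unannotated 98-base cassette exon in intron 2. The introns into and out of that exon had PSI values of 2.35% and 0.759% in Ctrl and of 2.87% and 2.79% in dTAG (χ2 p = 0.093). Its second cluster, of 6 introns, had χ2 p = 0.54, and its annotated intron 4 had 51.4% in Ctrl and 57.6% in dTAG. The other mitochondrial genes named here had p-values of at least 0.12: Slc25a39 (3 clusters), Slc25a1, the citrate carrier, Slc25a13, the second aspartate/glutamate carrier (3 clusters), Slc25a32 (2 clusters), Slc25a46, Slc25a11, Slc25a44 and Slc25a25.

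None of the 17 clusters of the 9 amino acid transporter genes passed p of at most 0.05, and the median of their largest differences was 1.39 percentage points. Slc7a3, the cationic amino acid transporter CAT3, was the only gene with 4 tested clusters, spread over introns 1 to 4. The leading introns of the 4 clusters went from 92.0% to 92.5%, from 96.5% to 97.1%, from 97.9% to 98.1% and from 97.0% to 96.0%, with p-values of 0.52, 0.16, 0.73 and 0.44. Every Slc7a3 cluster was thus dominated by 1 annotated intron in both groups. Slc7a7, the y+LAT1 light chain that exports cationic amino acids, had a cluster of 6 introns in its non-coding part. Its largest difference was at an unannotated 5′ site outside the annotated exons, with 6.53% in Ctrl and 14.3% in dTAG, at χ2 p = 0.54. The other Slc7a7 clusters had χ2 p = 0.80 and p = 0.41. Slc3a2, the heavy chain CD98 that pairs with the light chains, had 4 alternative first exons with PSI values of 45.5%, 22.5%, 18.3% and 13.7% in Ctrl and of 43.4%, 22.9%, 19.98% and 13.7% in dTAG (χ2 p = 0.99, the highest of all SLC clusters). Its first exons kept their order. The remaining amino acid genes were Slc1a5, Slc6a6, Slc15a4, Slc38a1, Slc38a2 and Slc38a10, with p-values from 0.41 to 0.92.

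Metal transporters had 10 clusters in 5 genes, with 1 below the threshold, that of Slc39a7. Slc39a14 encodes ZIP14, which takes up zinc, manganese and iron, and its second cluster holds a pair of mutually exclusive exons. The introns that flank the exon of Slc39a14-201 had PSI values of 34.8% and 11.003% in Ctrl and of 34.3% and 15.6% in dTAG. Those that flank the exon of Slc39a14-202 had 13.01% and 37.98% in Ctrl and 11.3% and 34.5% in dTAG. The intron that skips both had 3.18% and 4.36%, and the cluster had χ2 p = 0.45. Its other 2 clusters had χ2 p = 0.93 and p = 0.53. The zinc transporters Slc30a5 (3 clusters) and Slc30a9 (2 clusters) had p-values of at least 0.10, the lowest at an unannotated 5′ site of Slc30a5, 14 bases inside intron 4, with 6.71% in Ctrl and 10.7% in dTAG. Slc39a4 had χ2 p = 0.50.

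Among sugar transporters, only the first exons of Slc37a1 passed the threshold, and the other 5 clusters had p-values of at least 0.42. The glucose transporters Slc2a1 (GLUT1) and Slc2a3 (GLUT3) differed least. The leading introns of the 2 Slc2a1 clusters went from 95.04% to 96.1% and from 59.6% to 59.9%, and that of Slc2a3 from 98.6% to 98.2%. For Slc2a3, the approximate 95% interval of the difference at the minor intron ran from -0.457 to 1.63 percentage points. Slc37a3, a relative of Slc37a1, had a cassette exon of 146 bases whose skipping intron had 11.3% in Ctrl and 15.4% in dTAG (χ2 p = 0.42).

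Organic anion carriers had 3 clusters. Beside Slc16a1, these were in Slc16a3, which encodes the lactate exporter MCT4, and in Slc10a3, whose cluster also carries the name Ubl4a (χ2 p = 0.57). The Slc16a3 cluster was a 95-base cassette in the non-coding start of the gene. Its skipping intron held 3.18% of the split reads in Ctrl and 5.61% in dTAG (χ2 p = 0.27).

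The 8 clusters of the 7 inorganic ion transporter genes had the highest class median, 3.85 percentage points, with no p-value under 0.20. The smallest was that of Slc8b1, the mitochondrial sodium/calcium exchanger NCLX (χ2 p = 0.20). An unannotated 3′ site there, 50 bases inside the exon, had 10.5% in Ctrl and 6.57% in dTAG, and the approximate 95% interval of the difference ran from -7.40 to 2.86 points. Slc4a7, Slc9a8, Slc20a1, Slc20a2 and Slc41a1 had p-values from 0.62 to 0.88.

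Nucleotide sugar transporters had 4 clusters in 4 genes, with the smallest p-value in Slc35b1, a carrier of the endoplasmic reticulum (χ2 p = 0.088, adjusted p = 0.82). Its 2 annotated 3′ sites lie 25 bases apart at intron 2, which is not a multiple of 3. The downstream site had 18.4% in Ctrl and 25.2% in dTAG, and the interval of the difference ran from -0.885 to 16.4 percentage points, so it includes no difference as well as a large one. Slc35b2, Slc35c2 and Slc35a4 had p-values of 0.26, 0.80 and 0.77. Of the vitamin transporters, Slc23a2, the ascorbic acid transporter SVCT2, had an unannotated 5′ site inside the annotated intron 1 that held 17.7% of the split reads in Ctrl and 11.3% in dTAG (χ2 p = 0.17, interval of the difference -12.0 to 3.39 points). The second Slc23a2 cluster is an 89-base cassette, whose skipping intron held 3.17% of the split reads in Ctrl and 5.30% in dTAG (χ2 p = 0.23). The 2 clusters of the thiamine transporter Slc19a2 had p-values of 0.76 and 0.66. The nucleoside transporter Slc29a1 (ENT1) had the cluster with the most introns, 7, in which no PSI differed by more than 1.98 percentage points (χ2 p = 0.97). The choline transporter Slc44a1, the only lipid class gene, had the smallest difference of all, with 92.1% and 92.2% at the intron to the nearer of its 2 last exons (χ2 p = 0.97).

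**Figure D3:**
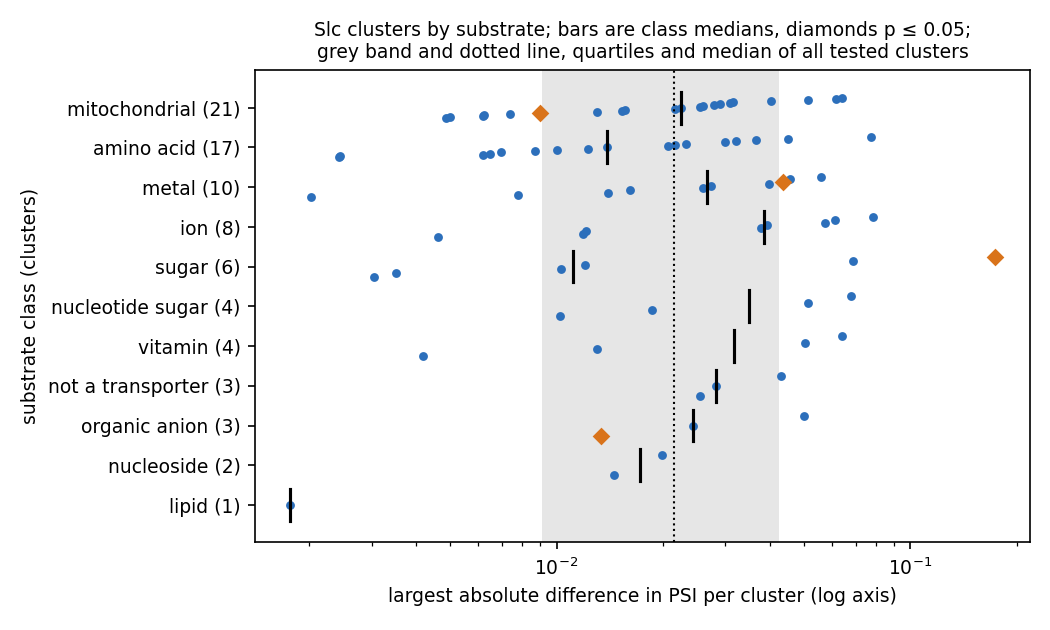
The largest absolute difference in PSI of each SLC cluster (points, log axis) by substrate class, with the number of clusters in brackets, class medians as black bars and clusters with a p of at most 0.05 as diamonds. Class medians range from 0.177 in the single lipid cluster to 3.85 percentage points in the ion class, and most points lie near the quartile range of all tested clusters (grey band, 0.909 to 4.24 percentage points).

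How firmly a small difference is known can be read from 33 clusters with only 2 introns. For 26 of them an approximate 95% interval could be worked out from the test score (the other 7 had scores too near 0). The interval of the PSI difference was between 0.984 and 17.2 percentage points wide, with a median of 9.66. Only those of Slc16a1 and the first Slc25a3 cluster left out 0, which restates their p-values, since both come from the same score. In the cluster with the narrowest interval, the second of Slc3a2, a change of more than 0.553 points in either direction lay outside it, whereas in Slc35b1, with the widest, the interval ran from -0.885 to 16.4 points.

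**Figure D4:**
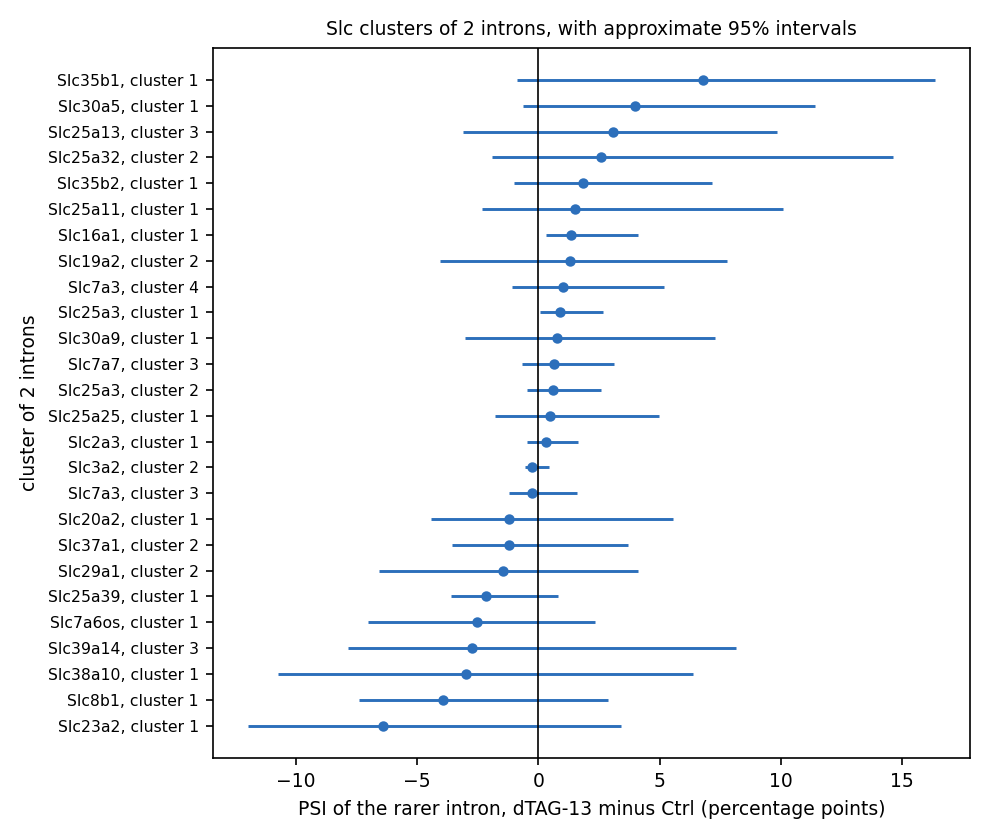
Differences in PSI (dTAG minus Ctrl, percentage points) of the rarer intron in 26 SLC clusters of 2 introns, with approximate 95% intervals as lines. Only the intervals of Slc16a1 and the first Slc25a3 cluster lie wholly to 1 side of 0, and the widest, of Slc35b1, spans 17.2 points. The intervals come from the same score as the p-values.

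The SLC clusters were of the same kinds as those of other genes. Beside the 22 choices of 5′ site, 18 were choices of 3′ site (22.8%, against 26.5% of all clusters). A single skipped part was held by 26 (32.9% against 33.2%), a skipped part among further introns by 12 (15.2% against 12.3%), and 1 had another arrangement. The single skipped part was 1 annotated exon in 17 clusters (21.5% against 28.6%). In the rest it matched no single annotated exon, and in Slc8b1 it ran from the end of intron 8 to the start of intron 11. Alternative first exons, counted as more than 1 5′ site of annotated first introns, were part of 13 clusters (16.5% against 12.6%). The count includes first exons that overlap. Of these 13, 3 had a p of at most 0.05 (67 of 917, or 7.31%, in all genes), those of Slc39a7, Slc37a1 and Slc25a3. In Slc39a7 annotated exons at these sites overlap, and the share that rose was that of an unannotated site. Of the 230 SLC introns, 170 were annotated (73.9%, against 74.7% of all tested introns), and all 230 had GT-AG or GC-AG ends. In the 43 SLC clusters that held both annotated and unannotated introns, the summed PSI of the unannotated ones was higher in dTAG in 23 and lower in 20. The share with a higher value, 53.5%, was near that of all such clusters, 53.1%. The sums therefore differed in both directions in SLC genes.

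Some SLC genes chose between sites that lie only a few bases apart. Pairs up to 10 bases apart made up 7 SLC clusters (8.86%, against 12.8% of all clusters), 0 of the 7 with a p of at most 0.05 (40 of 932, or 4.29%, in all genes). The tandem 3′ sites 3 bases apart are printed as the last 20 intron bases and the first 10 exon bases, with the last 2 intron bases in capitals, since both competing AG pairs can be seen in each line.

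Slc25a13, intron 9, upstream site, chr6:6110015-6110044 (-): tgcttatggcacgcgtgaAGcagaaggcct
Slc25a13, intron 9, downstream site, chr6:6110012-6110041 (-): ttatggcacgcgtgaagcAGaaggcctcgg
Slc38a10, intron 15, upstream site, chr11:120106027-120106056 (-): atgctcaccttccttcacAGcagacgtgca
Slc38a10, intron 15, downstream site, chr11:120106024-120106053 (-): ctcaccttccttcacagcAGacgtgcagcc
Slc4a1ap, upstream site, chr5:31548591-31548620 (+): gtgtatactttaccttaaAGcagcaccagc
Slc4a1ap, downstream site, chr5:31548594-31548623 (+): tatactttaccttaaagcAGcaccagcgaa

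In Slc25a13 the unannotated downstream site held most of the split reads, 68.6% in Ctrl and 65.5% in dTAG, and the annotated upstream site 31.4% and 34.5% (χ2 p = 0.34). In Slc38a10, a member of the neutral amino acid transporter family, the upstream site held 69.5% and 72.5% (χ2 p = 0.51). In Slc4a1ap, whose cluster also holds a cassette exon, the 2 introns that end at the upstream site together held 64.4% in Ctrl and 63.4% in dTAG, and those that end at the downstream site 18.8% and 17.4% (χ2 p = 0.50). Each pair thus kept the same preferred site in both groups. In Slc29a1, 5′ sites 6 bases apart at intron 8 were also shared between both forms, with 65.4% in Ctrl and 66.8% in dTAG at the upstream site (χ2 p = 0.60). The remaining close pairs, in Slc7a6os (8 bases), Slc15a4 (10 bases) and, at 4 bases each, Slc25a3 and Slc7a3, had p-values from 0.30 to 0.92. The scaffold gene Slc9a3r1, with a cassette of 154 bases, had χ2 p = 0.53.

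Other genes of membrane transport were compared by lists chosen by name. Counted here were 25 clusters of transport ATPases, 24 of ion channels and 16 of transporter partners and chaperones. A further 9 were of SLC-like genes without an Slc symbol. In each list 1 cluster had a p of at most 0.05, that is 4%, 4.17%, 6.25% and 11.1% against 6.84% of all tested clusters. None had an adjusted p under 0.2. These were clusters of Atp9b, Vdac2, Emc8 and Mtch2. The lowest p-value was that of Emc8, a subunit of the complex that inserts membrane proteins into the endoplasmic reticulum (χ2 p = 0.0060, adjusted p = 0.29), where the intron that differed most went from 89.5% to 85.6%.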

How the data were processed

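The sequenced material was 4sU-labelled RNA of 12 samples in 2 groups (Ctrl and dTAG). Per the labels and the study's methods, the authors mapped the reads to mm10 with STAR 2.5.2b, kept uniquely mapped reads and ran LeafCutter on both clones together, with a minimum number of split reads per cluster. The deposited cluster table holds a log-likelihood ratio (a score) with its degrees of freedom, and the deposited intron table holds the fitted PSI of each condition as a fraction. Deposited p-values, adjusted p-values, effect sizes and PSI differences are the authors' own comparison and were not used.

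From these, p was computed as the upper tail of the chi-square distribution at 2 times the score, with Benjamini-Hochberg adjustment over 7263 clusters, and the PSI difference as dTAG minus Ctrl, printed in percent or percentage points (Python 3.11.15, SciPy 1.17.1, pandas 2.3.3, pysam 0.24.0). Intervals for clusters of 2 introns divide the difference of logits by the square root of 2 times the score, with the Ctrl value taken as fixed. They were computed where the score was at least 0.05, are approximate, and take in only the spread that the authors' model counted. The scripts were tested on simulated data. For the intervals, the simulated counts had no replicates and did not cover PSI values as low as those of Slc16a1 and the first Slc25a3 cluster. Introns were compared with GENCODE vM21, in which all 51 symbols were found. Nothing states that the replicates are separate cultures, so the spread within a clone may be technical only. No clone term is stated for the fit, so differences between the 2 clones were part of the spread behind the p-values. Genes were named where a cluster had p of at most 0.05, an intron differed by at least 10 points, a gene had 4 or more tested clusters or a cluster 5 or more introns, or, in classes without such a gene, at the smallest p. The rest of the members are given to account for them, and a few items are not reported here. Members, lists and classes were chosen with earlier results of these data known.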

Additional observations from a re-analysis of the deposited data

How the results depend on the processing

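No paired analysis was possible because the deposited tables hold 1 fitted value per condition and no value per sample, and for the same reason no replicate or clone could be left out. The number of SLC clusters, and of SLC genes with such a cluster, at the p threshold was 4. It was 1 at p of at most 0.01, and the clusters fell to 1 where a PSI difference of at least 5 percentage points was also required and to 2 among clusters of 2 introns. The 1 cluster with an adjusted p under 0.2, of Slc16a1, was lost (0 clusters) with the Benjamini-Yekutieli adjustment and at an adjusted p under 0.05. The 20 introns that differed by at least 5 points became 1 at 10 points. These alternatives are stricter by construction. The other 9 values of counts and medians moved by less than 1.5 times, among them those without clusters of several gene names, without the 3 genes that are not carriers (an alternative chosen after seeing the data) and without introns below 1% in both conditions. The 22 values of introns in the 4 clusters with p of at most 0.05 kept their direction, but they could not have changed it. The logit keeps the sign of a difference, and none of these introns was below 1% in both conditions. These values are therefore no test of robustness. A p-value above the threshold does not show that PSI stayed the same, since the intervals are wide and the depth per cluster is unknown.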
